A study of Homo sapiens with 6 samples.

Results

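The genes that make, break down and carry gamma-aminobutyric acid (GABA) were followed in HEK293T cells with and without valproic acid (VPA). The set holds 8 of the 47470 genes listed in the count tables. It was chosen by name: GAD1 and GAD2 for synthesis, ABAT and ALDH5A1 for breakdown, SLC6A11, SLC6A12 and SLC6A13 for uptake at the plasma membrane, and SLC32A1 for loading of vesicles. All 8 were found in the tables.

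GABA is the main inhibitory transmitter of the adult brain. Glutamate decarboxylase, encoded by GAD1 and GAD2, forms it from glutamate. GABA transaminase, encoded by ABAT, converts it in mitochondria to succinic semialdehyde, which succinic semialdehyde dehydrogenase, encoded by ALDH5A1, oxidises to succinate of the citric acid cycle. Carriers of the SLC6 family take GABA up from outside the cell, and the vesicular transporter VGAT, encoded by SLC32A1, loads it into synaptic vesicles. VPA is an antiepileptic drug long studied for its effects on GABA turnover, and it also inhibits histone deacetylases. Outside the brain the same enzymes and carriers serve energy metabolism and, in the kidney, the handling of osmolytes.

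RNA was sequenced from 3 libraries of untreated HEK293T cells and 3 libraries of HEK293T cells kept for 1 day in 1 mM VPA. HEK293T cells derive from human embryonic kidney and express the large T antigen of SV40. Both groups were grown in the same serum-containing medium, and the untreated cells received nothing in place of VPA. The genotype label reads WT for untreated cells and VPA-treated for the others, and no engineered allele is named beyond the line itself. The labels do not state that the libraries came from separate cultures, so p-values measure the spread between libraries, which may be technical. Counts on genes totalled 18622267 to 18828495 per library. The 15298 genes that passed a filter on low counts were tested with the quasi-likelihood test of edgeR, with p-values adjusted by the Benjamini-Hochberg method over all of them. A gene passed the test at an adjusted p under 0.05, and it was called when its log2 fold change (VPA-treated over untreated) was also at least 1 in size. Normalized counts are counts scaled by the TMM factors to the mean library. RNA was pooled over many cells, so fewer cells with a transcript and less of it per cell cannot be told apart.

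The promoters of 3 of the genes are shown because their RNA levels differed in kind: ABAT rose, SLC32A1 was counted only after VPA treatment, and SLC6A11 did not pass the test. Each run is the 250 bases before the RefSeq start on GRCh38.p14, read 5′ to 3′ on the gene's strand, with every match to GGGCGG or CCAAT on either strand in capitals. The windows are chr16:8674367-8674616 for ABAT, chr20:38724236-38724485 for SLC32A1 and chr3:10815978-10816227 for SLC6A11, all on the plus strand.
ABAT: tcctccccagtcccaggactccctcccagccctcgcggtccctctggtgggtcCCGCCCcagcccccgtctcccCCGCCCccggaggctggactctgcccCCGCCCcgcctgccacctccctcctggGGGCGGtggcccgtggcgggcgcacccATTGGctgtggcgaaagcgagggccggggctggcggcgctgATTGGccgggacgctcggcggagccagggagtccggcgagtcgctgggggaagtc
SLC32A1: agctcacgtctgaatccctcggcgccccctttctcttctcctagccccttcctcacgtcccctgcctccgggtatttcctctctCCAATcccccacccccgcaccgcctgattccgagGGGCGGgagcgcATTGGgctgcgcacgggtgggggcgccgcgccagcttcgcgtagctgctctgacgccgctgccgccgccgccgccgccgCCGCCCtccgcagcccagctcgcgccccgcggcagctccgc
SLC6A11: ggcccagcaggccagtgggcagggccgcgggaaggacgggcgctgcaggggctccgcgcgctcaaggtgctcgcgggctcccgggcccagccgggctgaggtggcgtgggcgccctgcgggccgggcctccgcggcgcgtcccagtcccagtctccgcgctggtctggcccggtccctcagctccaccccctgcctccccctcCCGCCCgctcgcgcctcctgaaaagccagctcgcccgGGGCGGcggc

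GGGCGG is the core of the GC box and CCAAT the core of the box bound by NF-Y. The ABAT window held 4 matches to GGGCGG and 2 to CCAAT. The SLC32A1 window held 2 of each. In the SLC6A11 window there were 2 matches to GGGCGG and 0 to CCAAT. Of the 35116 promoter windows of the same length, 42.6% held GGGCGG and 32.0% held CCAAT, so such matches were common and mark no site by themselves. All 3 windows were rich in G and C, with 77.2% in ABAT, 73.6% in SLC32A1 and 80.0% in SLC6A11 against a median of 58% over all promoters. They held 24, 32 and 30 CpG dinucleotides against a median of 11. CCAAT was thus in the ABAT and SLC32A1 windows and not in that of SLC6A11, and all 3 held GGGCGG and many CpG. These 3 windows were picked by the RNA levels, and that of GAD2 held CCAAT too. A link between these letters and VPA treatment was not tested.

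The promoter table held 7 of the 8 genes, with SLC6A12 missing. Matches to TATAAA on either strand, the letters of a TATA box, stood 2 times in the GAD1 window and in none of the other 6 windows, against 10.7% of all promoters with 1 or more. The GAD1 window of the table, chr2:170816637-170816886, belongs to a start within the gene and not to the first base of the gene given here. The GAD2 window held 1 GGGCGG and 1 CCAAT, and that of ALDH5A1 held 1 GGGCGG with 33 CpG. SLC6A13 had no match to any of the 5 motifs searched, with 6 CpG and 58.4% G and C. The other 2 motifs, TGACGTCA and CACGTG, were found in no window of the set, against 1.65% and 6.34% of all promoters.

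Among the 8 genes, ABAT and SLC6A12 rose after VPA treatment under every scaling of the libraries tried. With TMM scaling ALDH5A1 fell slightly and GAD1 and SLC6A11 did not pass the test, but with upper quartile factors, library totals or ribosomal protein genes as the reference GAD1 and SLC6A11 passed as higher, and with the last ALDH5A1 turned direction. GAD2, SLC6A13 and SLC32A1 had too few counts to pass the filter. Of all tested genes 32.9% passed as higher, 30.0% passed as lower, 12.0% were called up and 0.503% were called down. Against that background, 2 of the 5 tested genes of the set passed as higher, both called up, and 1 passed as lower without being called. SLC6A12 entered the test through its counts in VPA-treated cells, so its count among the tested genes is no support for a direction of the set. The median log2 fold change of the 5 was 0.15, beside 0.0058 over all tested genes.

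**Figure D1:**
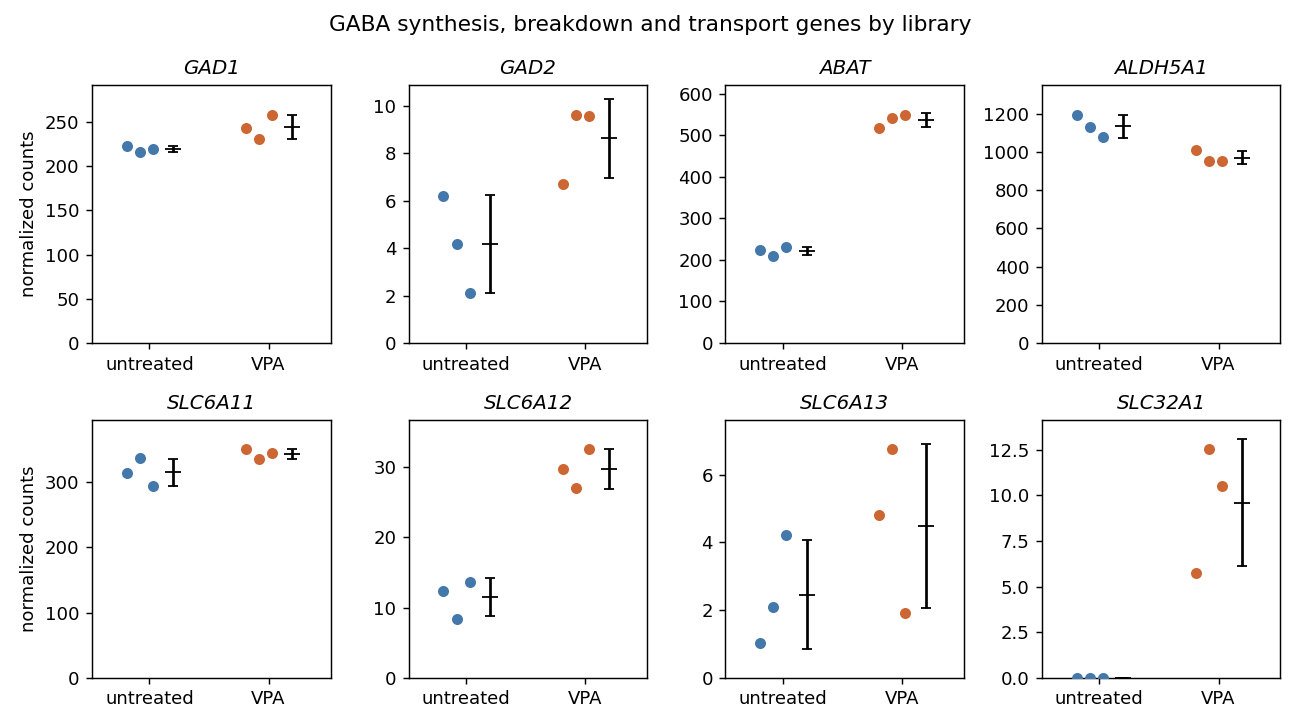
Normalized counts (vertical axes, each from 0) of the 8 genes in the 3 untreated (blue) and 3 VPA-treated (orange) libraries, with bars at the mean ± SD. ABAT and SLC6A12 are higher and ALDH5A1 lower in every VPA-treated library, SLC32A1 is at 0 in every untreated library, and the groups overlap in SLC6A11 and SLC6A13.

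Synthesis genes came first in the pathway. GAD1, on chromosome 2 (170813210 to 170861151, plus strand), encodes the glutamate decarboxylase that supplies most of the GABA outside nerve terminals. It had 223, 217 and 219 normalized counts in untreated libraries and 243, 231 and 259 in VPA-treated ones. Every VPA-treated library lay above every untreated one, a separation seen in 34.8% of all tested genes, and the gap was narrow. The means were 219.6 ± 2.96 and 244 ± 13.7 normalized counts (SD, n = 3 each), while counting error alone gives an SD of 14.8 at the untreated level. The spread among the untreated libraries was thus smaller than counting would give on average. The log2 fold change was 0.15 (SE 0.083, 95% interval -0.017 to 0.33) and did not pass the test (adjusted p = 0.108 by edgeR's quasi-likelihood test). A rise above 0.33 on the log2 scale lay outside this interval. Whether GAD1 passed depended on the scaling of the libraries, as described with the scalings.

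GAD2 encodes the decarboxylase that is attached to synaptic vesicles, and it lies on chromosome 10 (26216372 to 26304558, plus strand). Its raw counts were 6, 4 and 2 in untreated libraries and 7, 10 and 10 in VPA-treated libraries. The lowest VPA-treated library stood 1 count above the highest untreated one. On the normalized scale the means were 4.17 ± 2.06 and 8.64 ± 1.67 (SD, n = 3 each), with an exact permutation p of 0.1 (two-sided), the smallest that 3 against 3 libraries can give. Without the filter on low counts, edgeR gave a log2 fold change of 1.01 (SE 0.51, adjusted p = 0.112). Leaving out untreated replicate 1, which had the highest untreated count, brought GAD2 into the fit through its VPA-treated counts, with a log2 fold change of 1.42 (adjusted p = 0.0377), a pass that the filter itself favoured. A difference in GAD2 was not detectable at this depth with all libraries.

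ABAT, which encodes the enzyme that starts GABA breakdown, lies on chromosome 16 (8674617 to 8784570, plus strand). Its normalized counts were 223, 210.4 and 231 in untreated libraries and 517, 540.4 and 549.6 in VPA-treated libraries. The groups were far apart, and the spread within each was small beside the gap. From 221 ± 10.3 the level rose to 536 ± 16.5 normalized counts (SD, n = 3 each). The log2 fold change was 1.28 (SE 0.071, adjusted p = 1.27e-12 by edgeR's quasi-likelihood test), a fold of 2.42 with a 95% interval of 2.18 to 2.68. It stayed between 1.23 and 1.30 when any 1 library was left out. Among all tested genes it stood at the 91.3 percentile of log2 fold changes, a value that many other genes exceeded. Of the genes with a mean of 50 to 500 normalized counts, 16.5% were called up. ABAT shares 152 exon bases with TMEM186 on the opposite strand. That neighbour had 1701 counts over all 6 libraries, and the strand setting of the counting was not given in the sources used here.

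ALDH5A1, the next enzyme of the same route, lies on chromosome 6 (24494969 to 24537207, plus strand) and was the most abundant of the 8. It had 1196, 1133 and 1076 normalized counts in untreated libraries and 1009, 951 and 951 in VPA-treated libraries. All VPA-treated libraries were below all untreated ones, a separation found in 31.0% of all tested genes. The means were 1135 ± 59.9 and 970.2 ± 33.7 normalized counts (SD, n = 3 each). With TMM scaling ALDH5A1 fell, with a log2 fold change of -0.23 (SE 0.052, adjusted p = 0.000771 by edgeR's quasi-likelihood test), a change of -14.5% in the mean, but with ribosomal protein genes as the reference the value was 0.042 and did not pass. Of the genes with a mean of 500 to 5000 normalized counts, 46.8% passed as lower. ALDH5A1 shares 239 exon bases with GPLD1 on the opposite strand, which had 901 counts in all. The enzymes of GABA breakdown therefore did not move together: ABAT rose and ALDH5A1 did not, under each of the scalings tried.

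The plasma membrane carriers differed as well. SLC6A11 encodes GAT3, a GABA carrier known best from astrocytes, on chromosome 3 (10816228 to 10940714, plus strand). Its normalized counts were 314, 337 and 295 in untreated libraries and 351, 335 and 345 in VPA-treated libraries. The groups overlapped, since untreated replicate 2 lay above VPA-treated replicate 2. The means were 315 ± 21.1 and 344 ± 7.81 normalized counts (SD, n = 3 each). The log2 fold change was 0.12 (SE 0.074, 95% interval -0.029 to 0.28, adjusted p = 0.149 by edgeR's quasi-likelihood test). SLC6A11 thus did not pass with TMM scaling, and a rise above 0.28 lay outside the interval.

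SLC6A12 encodes BGT1, the betaine and GABA carrier that kidney cells use to take up betaine as an osmolyte. It lies on chromosome 12 (183848 to 214157, minus strand). Raw counts were 12, 8 and 13 in untreated libraries and 31, 28 and 34 in VPA-treated libraries. No VPA-treated library came near the untreated range. Normalized counts rose from 11.5 ± 2.76 to 29.7 ± 2.79 (SD, n = 3 each). This is a log2 fold change of 1.36 (SE 0.26, adjusted p = 0.000105 by edgeR's quasi-likelihood test). The fold of 2.57 had a 95% interval of 1.77 to 3.75, wider than that of ABAT, which had many more counts. When single libraries were left out the log2 fold change lay between 1.18 and 1.50, the lower value without untreated replicate 2. When the fold threshold was part of the test (glmTreat in edgeR), SLC6A12 was no longer called (adjusted p = 0.324) and ABAT was (adjusted p = 0.00169). In the class of genes with a mean under 50 normalized counts, 29.4% were called up. SLC6A12 shares 59 exon bases with SLC6A12-AS1 on the opposite strand, which had 16 counts over all libraries.

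SLC6A13 encodes GAT2, a carrier of liver, kidney and the meninges, and is the neighbour of SLC6A12 on chromosome 12 (220622 to 262836, minus strand). It had 1, 2 and 4 raw counts in untreated libraries and 5, 7 and 2 in VPA-treated libraries. The groups overlapped, and the exact permutation p was 0.3 (two-sided). Without a filter edgeR gave a log2 fold change of 0.83 (SE 0.69, adjusted p = 0.387), so a difference between the groups was not detectable at this depth. The neighbours SLC6A12 and SLC6A13 could thus not be compared in their response.

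SLC32A1, the gene of VGAT, lies on chromosome 20 (38724486 to 38729372, plus strand). No count was found in the 3 untreated libraries, and 6, 13 and 11 were found in the VPA-treated libraries. The transcript was thus detected in every VPA-treated library and in no untreated one, with an exact permutation p of 0.1 (two-sided), the smallest possible. The VPA-treated mean was 9.60 ± 3.48 normalized counts (SD, n = 3). A count of 0 allows up to 3 counts, here taken over the untreated group. The VPA-treated sum of 28.8 normalized counts was 9.60 times that floor. The error of the VPA-treated counts is not in this value, so it is no lower bound of the fold. This pattern was shared by other genes, since 370 genes were at 0 in all untreated libraries and counted in every VPA-treated one. SLC32A1 had 30 counts over the VPA-treated libraries, and 7 of the 370 genes, itself included, had that many or more. It fell under the filter used with edgeR, but DESeq2 tested it and gave an adjusted p of 0.00018, and edgeR without a filter called it up (adjusted p = 6.82e-08).

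Levels of different genes can be compared only per length of transcript, so counts were also divided by the length of the canonical GENCODE transcript and scaled to a common sum in each library (TPM). TPM values carry no TMM factor. In untreated cells ALDH5A1 stood highest with 25.9 ± 1.59 TPM, followed by SLC6A11 with 8.68 ± 0.58, GAD1 with 7.84 ± 0.17 and ABAT with 5.42 ± 0.26 (SD, n = 3 each). These 4 genes did not overlap in their untreated ranges. Far below came SLC6A12 with 0.419 ± 0.101 TPM, SLC6A13 with 0.13 ± 0.085, GAD2 with 0.091 ± 0.045 and SLC32A1 at 0. The ranges of SLC6A13 and GAD2 overlapped, so their order was not resolved. Untreated HEK293T cells thus held RNA of a decarboxylase, both breakdown enzymes and a carrier, and little or none for the vesicular step.

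After VPA treatment the order changed at ABAT, which moved from the fourth place to the second with 14.7 ± 0.51 TPM (SD, n = 3). ALDH5A1 remained first with 24.8 ± 0.79 TPM. SLC6A11 with 10.6 ± 0.24 TPM and GAD1 with 9.78 ± 0.58 followed, with ranges that overlapped. SLC6A12 reached 1.22 ± 0.12 TPM and kept the fifth place. SLC32A1 with 0.494 ± 0.18, SLC6A13 with 0.269 ± 0.145 and GAD2 with 0.21 ± 0.041 TPM overlapped with their neighbours in the order. SLC32A1 at its highest, 0.643 TPM, was thus still below SLC6A12 at its lowest, 1.10 TPM. With the length of all exons of a gene in place of the canonical transcript, GAD2 came before SLC6A13 in both groups, and the VPA-treated ranges of SLC6A11 and GAD1 no longer overlapped, nor did those of SLC32A1 and the gene after it. The levels themselves moved most in SLC32A1, to 0.955 TPM after VPA treatment, and in GAD2, to 0.162 TPM untreated and 0.372 TPM after VPA treatment, and those of the other 6 genes by less than 1.5 times.

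**Figure D2:**
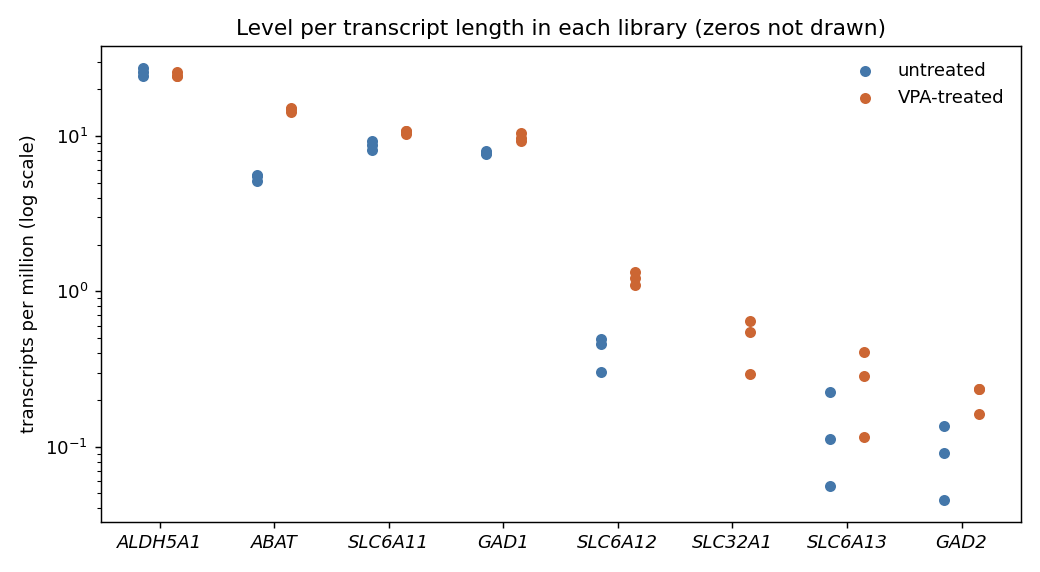
Levels in TPM (vertical axis, log scale) of the 8 genes in each library, untreated in blue and VPA-treated in orange, with zeros not drawn. ABAT moves from below SLC6A11 and GAD1 to above both, and SLC32A1 has only VPA-treated points, between 0.295 and 0.643.

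Ratios between genes within a library do not depend on how libraries are scaled. ABAT to ALDH5A1, the first breakdown enzyme over the second, was 0.2, 0.199 and 0.23 in untreated libraries and 0.551, 0.61 and 0.621 in VPA-treated libraries. The ratio was 2.83-fold higher after VPA treatment, with no overlap (exact permutation p = 0.1, two-sided, the smallest possible). ABAT to GAD1, breakdown over synthesis, went from 0.692 ± 0.028 to 1.51 ± 0.084 (SD, n = 3 each; exact permutation p = 0.1), so that it was below 1 in every untreated library and above 1 in every VPA-treated one. GAD1 to ALDH5A1 was 1.30-fold higher after VPA treatment, from 0.303 ± 0.014 to 0.394 ± 0.027, again without overlap (exact permutation p = 0.1). These ratios carry no call at 3 libraries a group, though each separated the groups without a choice of scaling. Separation was common among single genes, with 34.8% of all tested genes higher and 31.0% lower in every VPA-treated library. The pairs were chosen with earlier results of these data known. How many pairs of other genes separate the groups was not computed.

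Among the carriers, SLC6A12 to SLC6A11 was 0.0524, 0.0329 and 0.0612 in untreated libraries and 0.112, 0.107 and 0.125 in VPA-treated libraries, 2.34-fold higher on average (exact permutation p = 0.1, two-sided). SLC6A11 to GAD1 was 1.11 ± 0.083 and 1.09 ± 0.05 (SD, n = 3 each), with ranges that overlapped (exact permutation p = 0.8). GAD2 to GAD1 overlapped as well, at 0.0115 ± 0.0056 and 0.0215 ± 0.0044 (exact permutation p = 0.2), and GAD1 made up nearly all decarboxylase RNA in both groups.

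**Figure D3:**
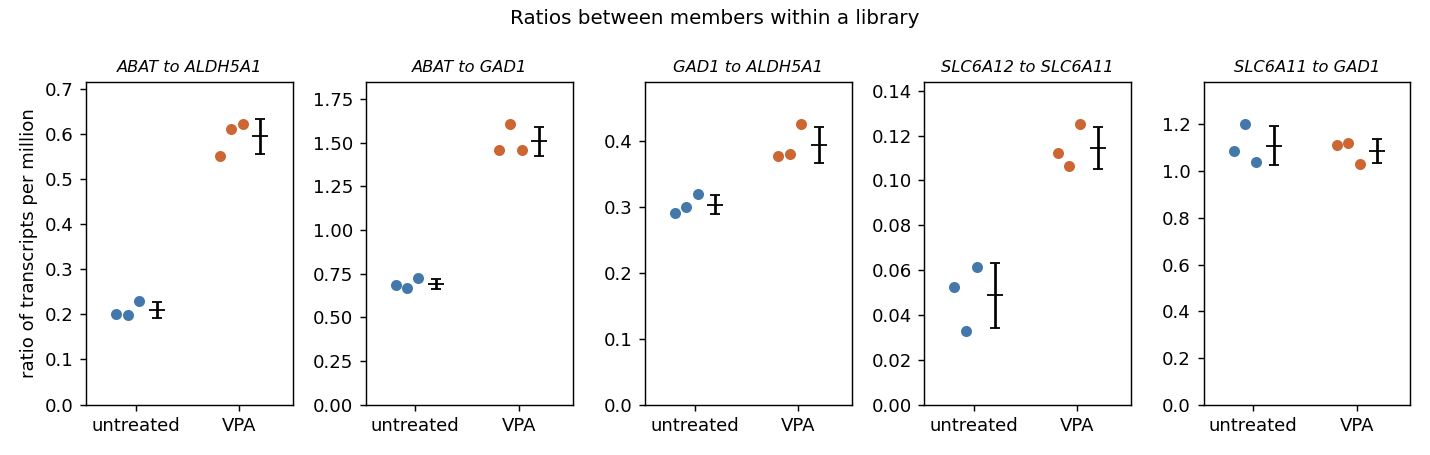
Ratios of TPM values between pairs of the genes within each library (vertical axes from 0), untreated in blue and VPA-treated in orange, with bars at the mean ± SD. ABAT to ALDH5A1, ABAT to GAD1, GAD1 to ALDH5A1 and SLC6A12 to SLC6A11 separate the groups, and SLC6A11 to GAD1 lies between 1.03 and 1.20 in both.

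Of the summed TPM of the carriers SLC6A11, SLC6A12 and SLC6A13, SLC6A11 made up 91.8% to 95.7% in untreated libraries and 87.3% to 88.0% in VPA-treated libraries. The share of SLC6A12 was 3.15% to 5.62% without VPA and 9.30% to 11.01% with it, and these ranges did not overlap. SLC6A13 made up 0.605% to 2.54% and 0.95% to 3.41%, with ranges that overlapped. SLC6A11 was thus the most abundant of these carrier RNAs in all 6 libraries, with a smaller share after VPA treatment.

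The scaling of the libraries decided whether GAD1, SLC6A11 and ALDH5A1 passed the adjusted p, and none of them was called under any scaling. The median over all tested genes lay at 0.0058 with TMM factors, and it was 0.071 with upper quartile factors, 0.14 with library totals and 0.27 with ribosomal protein genes as the reference. The share of higher genes among those that passed went from 52.3% to 63.0%, 73.9% and 91.3% in the same order. GAD1 passed as higher with these last 3, at 0.22 (adjusted p = 0.0267), 0.29 (adjusted p = 0.00556) and 0.42 (adjusted p = 0.000197) by the same edgeR test. SLC6A11 likewise passed at 0.19 (adjusted p = 0.031), 0.26 (adjusted p = 0.00552) and 0.39 (adjusted p = 0.00012). ALDH5A1 was at -0.16 (adjusted p = 0.0109), -0.095 (adjusted p = 0.136) and 0.042 (adjusted p = 0.524). With these and with DESeq2 size factors, ABAT was called up at 1.26 to 1.54 and SLC6A12 at 1.35 to 1.63.

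Relative to the median of all genes, the values hardly moved. ABAT stood 1.27 above that median and SLC6A12 1.36 above it with TMM factors, upper quartile factors, library totals or ribosomal protein genes. GAD1 stood 0.15 above and SLC6A11 0.12 above, and ALDH5A1 stood at -0.23. A change of scaling moves all genes by nearly the same amount against 0. The kept order and distances of the 5 tested genes thus follow from the method and are no further support for their values.

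**Figure D4:**
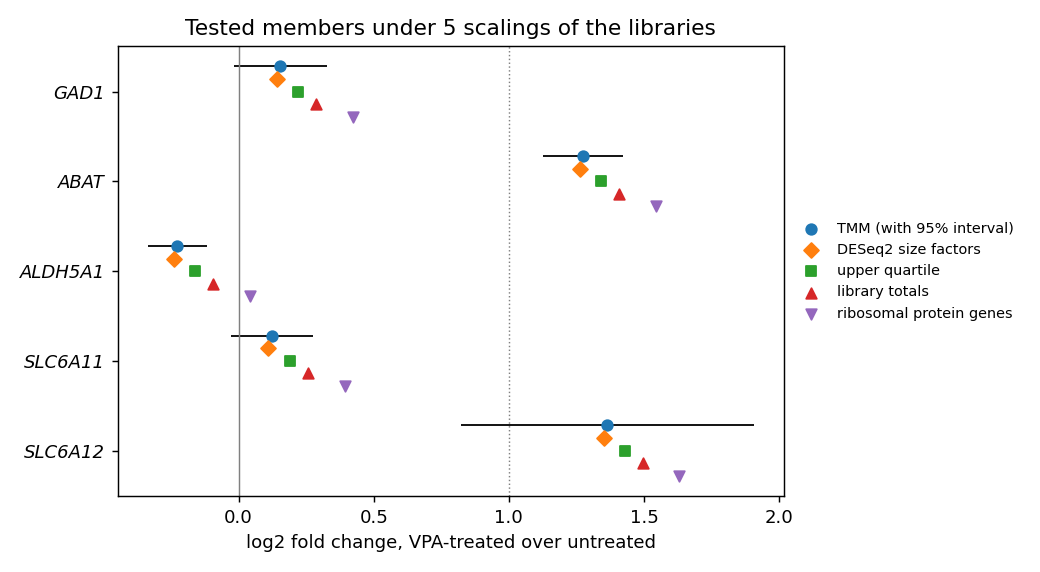
Log2 fold change (horizontal axis, VPA-treated over untreated) of the 5 tested genes with 5 scalings of the libraries, with the 95% interval for TMM, a solid line at 0 and a dotted line at 1. ABAT and SLC6A12 lie above 1 with every scaling, GAD1 and SLC6A11 lie between 0.11 and 0.42, and ALDH5A1 goes from -0.24 to 0.042 with ribosomal protein genes as the reference.

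For each gene of the set that passed, the 3 tested genes with the most similar pattern over the 6 libraries were named by the root mean square difference of log2 CPM, each centred on its own mean. Those nearest to ABAT were B4GALNT1 at 0.031, SLC7A8 at 0.032 and GALNT16 at 0.04, and 113 genes were closer than 0.1. For ALDH5A1 they were DUSP7 at 0.012, KXD1 at 0.013 and ZFPL1 at 0.015, among 3344 genes closer than 0.1. SLC6A12 had RGS17 at 0.079, LYPD3 at 0.082 and DNAH10 at 0.09, with 4 genes closer than 0.1. The change of ALDH5A1 was small beside the bound of 0.1, so its 3344 genes can include some that hardly changed. The numbers of close genes are therefore not comparable between ABAT, ALDH5A1 and SLC6A12. SLC6A12, with its few counts, had few close matches.

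Genes around the pathway were taken from 7 lists of 60 further genes, of which 50 were tested. Of these 50, 13 passed as higher and 18 as lower, 3 were called up and none down, and the median log2 fold change was -0.035. Over all tested genes the shares were 32.9% higher, 30.0% lower and 12.0% called up. Of the 10 tested genes that supply glutamate, 3 passed as higher and 4 as lower. The glutamine carrier gene SLC38A3 was called up, from 157 ± 5.18 to 355 ± 18.4 normalized counts (log2 fold change 1.18), while GLUL, for glutamine synthetase, fell from 11491 ± 688 to 8064 ± 90.8. Of the 10 genes of the citric acid cycle around succinate, where the product of ALDH5A1 enters, 7 passed as lower and 0 as higher with TMM scaling, against 1 and 6 with ribosomal protein genes as the reference. All 10 had a mean of 500 to 5000 normalized counts, where 46.8% of all tested genes passed as lower with TMM scaling. SDHD, a subunit of succinate dehydrogenase, fell from 2340 ± 62.9 to 1750 ± 45.9 normalized counts (log2 fold change -0.42). The median of that list was -0.14, less far from 0 than the -0.23 of ALDH5A1.

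Putrescine can also give rise to GABA without a decarboxylase. In the list of that route, 2 of the 6 tested genes passed as higher and 2 as lower. ALDH1A1, an aldehyde dehydrogenase that can complete the route, rose from 23.6 ± 4.58 to 251 ± 4.55 normalized counts (log2 fold change 3.40, adjusted p = 6.46e-15 by edgeR's quasi-likelihood test), and ODC1, which makes putrescine, fell from 9556 ± 677 to 6336 ± 134. Of the 4 genes listed around the reduction of succinic semialdehyde and its reversal, none passed by DESeq2. By edgeR with TMM scaling none had an adjusted p under 0.05. At an unadjusted p under 0.05 there was 1, 0 to 1 passed as lower when single libraries were left out, 1 did without a filter, and 3 passed as higher with ribosomal protein genes as the reference. Of the 5 tested genes for pyridoxal phosphate, the cofactor of GAD1, GAD2 and ABAT, 1 passed as higher and 2 as lower, none called. When single libraries were left out, 0 to 2 of that list passed as higher and 0 to 1 was called up, and 1 was called up by DESeq2 and without a filter. That gene was GADL1, a relative of the decarboxylases named after its values were seen, with raw counts of 2, 0 and 0 in untreated libraries and 7, 12 and 12 in VPA-treated libraries (DESeq2 adjusted p = 0.00546). Of 6 tested carriers and osmolyte genes other than the set, 3 passed as higher and 1 as lower, none called, with SLC6A6, for the taurine carrier, at a log2 fold change of 0.26 beside 1.36 for SLC6A12. At 0 in every library were 5 of the 60, GLUD2, MAOB, SAT1, SLC6A8 and SLC6A5, and no level was read from that.

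**Figure D5:**
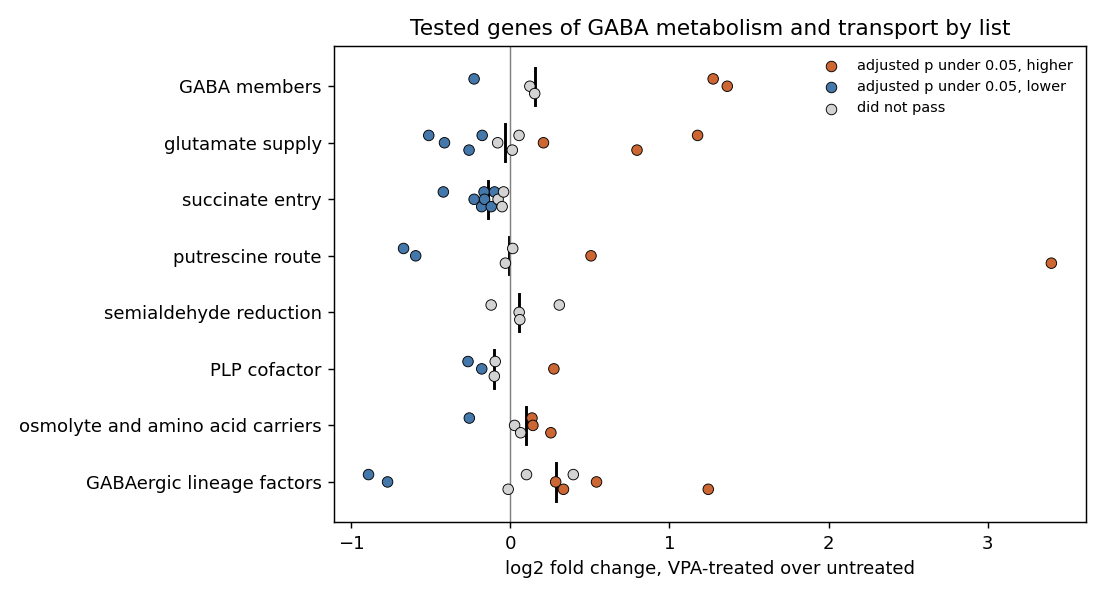
Log2 fold change (horizontal axis, VPA-treated over untreated, TMM scaling) of each tested gene of the set and of the 7 lists around it, in orange where it passed as higher, blue where it passed as lower and grey where it did not pass, with a bar at each list's median. The genes of the citric acid cycle around succinate all lie at or below -0.041, and the point beyond 3 is ALDH1A1.

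Some genes listed as markers of GABAergic neurons and of other cell types moved in the same libraries as ABAT, SLC6A12 and SLC32A1. Of 11 transcription factors of GABAergic interneuron development, 9 were tested, 4 passed as higher and 2 as lower. NKX2-1 was called up, from 44.9 ± 7.57 to 107 ± 5.44 normalized counts. DLX1 and DLX2, which act upstream of GAD1 and GAD2 in the forebrain, fell with log2 fold changes of -0.77 and -0.89. DLX5, DLX6 and LHX6 went the other way and passed as higher, at 0.29, 0.34 and 0.54, without being called. The 8 genes listed as markers of GABAergic neurons summed to 36.7 to 45.0 normalized counts in untreated libraries and 209 to 233 in VPA-treated libraries. Of these, PVALB, NPY and RBFOX3 were tested and called up, but PVALB and NPY passed the filter only through their VPA-treated counts, so their direction was fixed in part by the filter. VIP was at 0 in every library and SST in every untreated one. Without and with VPA, CALB1 had 5 and 9 raw counts over the group, CALB2 2 and 10, and RELN 1 and 0. RBFOX3, which is not particular to GABAergic neurons, and NPY made up most of the sum. Their means went from 22.6 to 97.6 and from 10.1 to 92.4 normalized counts. The 7 markers of other cell types summed to 429 to 475 and 1386 to 1536 normalized counts, with COL1A1, DCN, GFAP and AQP4 tested and called up and with PTPRC and CDH5 at 0 in the untreated libraries. COL1A1 alone made up most of this sum, with means of 433 and 1288 normalized counts. DCN and AQP4 likewise passed the filter only through VPA-treated counts. Of all tested genes with a mean below 50 normalized counts, the level of PVALB, DCN, GFAP and AQP4, 29.4% were called up. For a mean of 50 to 500, the level of NPY and RBFOX3, the share was 16.5%. COL1A1 lay above both classes, and 12.0% of all tested genes were called up. All 7 markers of the HEK293T line were tested, with summed counts of 18323 to 18944 and 20298 to 21495, 5 higher and 2 lower. Of the 5, PAX2 and KRT8 were called up. PAX2 rose from 29.6 ± 0.391 to 142 ± 1.07 normalized counts and KRT8 from 389 ± 51.3 to 1004 ± 63.3. Whether these changes have a part in those of ABAT, SLC6A12 or SLC32A1 was not tested.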

How the data were processed

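Total RNA of 3 untreated and 3 VPA-treated samples of HEK293T cells was sequenced with a strand-specific mRNA protocol. The authors cleaned the reads with SOAPnuke, and the submitters' processing notes name STAR 2.7.10b, HTSeq 2.0.1 and hg38. The deposited values are raw counts per gene, one table per library, without normalization. The annotation and strand setting are not given in the sources used here. The summary lines of the counting, 11.8% to 12.7% of the reads listed, were left out.

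The counts were analysed in R 4.3.3 with edgeR 4.0.16: TMM factors, filterByExpr with a count minimum of 10, a robust quasi-likelihood fit of condition alone, Benjamini-Hochberg adjustment and a prior count of 0.125. Scripts were tested on simulated data. The alternatives were DESeq2 1.42.0, 4 other scalings, other filters, glmTreat, a larger prior count (2), a block for replicate number, and the omission of each library. Same-numbered libraries deviated together with r = 0.139, 0.0214 and 0.0805, and libraries of different number with r from -0.107 to 0.0308. The main fit did not pair libraries by number, and whether the numbers share a batch was not tested. The libraries of a group differed by more than sampling noise.

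All 8 genes were named, and from each other list every called gene and up to 3 others that passed, in order of adjusted p. Markers were named where a statement turned on them. DLX5 and DLX6 were named beyond this rule, beside DLX1 and DLX2, after their values were seen. Of the genes first placed in these lists, 2 are not reported here and were left out of every count over the lists. The genes, lists and tests were chosen with earlier results of these data known. Positions and promoters are from RefSeq (GRCh38.p14), matched by symbol, and lengths from GENCODE 44, which gave 27940 genes a length. Depth limits genes with few counts, and a count of 0 was read as up to 3 counts, for counting error only.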

Additional observations from a re-analysis of the deposited data

How the results depend on the processing

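Of 565 comparisons of 38 single genes with the alternatives, 540 kept their direction and their side of the threshold, 11 no longer passed, 6 newly passed and 8 turned direction. All 8 turned with ribosomal protein genes as the reference, where the log2 fold change was 0.042 for ALDH5A1, 0.011 for GLUD1, 0.042 for SDHC, 0.091 for SDHB, 0.0036 for PDXP, 0.090 for PLPBP, 0.012 for SLC5A3 and 0.0022 for VIM. Of the set, 4 genes (GAD1 and SLC6A11 added) passed as higher with upper quartile factors, library totals or ribosomal protein genes, and 0 passed as lower with library totals or ribosomal protein genes. With at least 10 counts in every library 1 passed as higher and 1 was called up, because SLC6A12 was not tested, and with glmTreat 1, ABAT, was called up. When single libraries were left out, 2 to 4 were called up and 2 to 4 passed as higher. The 4 came without untreated replicate 1, where GAD2 and SLC32A1 entered the fit. Without untreated replicate 2, untreated replicate 3 or VPA-treated replicate 1, 3 were called up. Of the genes around the set, 22 were higher and 10 lower with library totals and 35 and 6 with ribosomal protein genes, and 5 were called up with DESeq2, 5 without a filter and 1 with glmTreat, against 3. Over all tested genes, library totals gave 2372 lower and 38 called down, and ribosomal protein genes 9185 higher, 870 lower and 17 called down. Without a filter 162 were called down. With at least 10 counts in every library 1179 were called up and 43 down, and with glmTreat 1149 and 8. The cause of these shifts was not tested.

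The replicate number as a block gave 2 genes of the set called up and 1 lower, and over all tested genes 1835 called up and 77 called down. With the block 5357 of all tested genes passed as higher and 5100 as lower, against 5037 and 4591 without it. The block changed no call in the set. The length of all exons in place of the canonical transcript, an alternative chosen after seeing the data, changed levels per length as described with the levels. The few counts of GAD2, SLC6A13 and SLC32A1 limit what can be said of them.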
